A study of Homo sapiens with 8 samples.

Results

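Chondroitin sulfate and dermatan sulfate are sugar chains built on the same protein-linked stem as heparan sulfate, and the 10 human enzyme genes considered here carry out the chain-specific steps of their synthesis. They were chosen by symbol (CHSY1, CHSY3, CHPF, CHPF2, CSGALNACT1, CSGALNACT2, DSE, DSEL, CHST11 and CHST12), and 8 of the 10 matched rows among the 15811 genes of the analysed table. CHSY3 and CSGALNACT1 were not analysed here. The values come from total RNA of H9 cells, a widely used line of human embryonic stem cells, and form 2 groups with 4 libraries in each. The first group is the EXT1-/- line, in which the EXT1 gene was edited with CRISPR/Cas9 and which the labels describe as lacking heparan sulfate. The second is wild-type (WT) H9. Both groups were taken 28 h after the start of mesendoderm induction with 6 µM CHIR-99021, an inhibitor of the kinase GSK3 that activates β-catenin signalling. The labels describe a single edited line, so the edit and other properties of that line cannot be told apart, and uninduced cells were not analysed here. Whether replicates came from different cultures is not stated, so the p-values cover library-to-library spread that may be technical.

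A chain of this family starts on a serine of a core protein with a short linkage region of xylose, galactose and glucuronic acid. From that stem the first following sugar decides the class of the chain: N-acetylgalactosamine, added by CSGALNACT1 or CSGALNACT2, opens a chondroitin chain, whereas N-acetylglucosamine, added by EXTL3, opens a heparan sulfate chain that EXT1 and EXT2 extend. CHSY1 and CHSY3 are the chondroitin synthases, which work with the polymerising factors CHPF and CHPF2. DSE and DSEL are epimerases that turn glucuronic acid into iduronic acid, the change that makes chondroitin into dermatan. CHST11 and CHST12 put sulfate on carbon 4 of N-acetylgalactosamine. No glycan was measured here: all values are transcript levels.

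The deposited values are normalised read counts, on which 1 CPM (a count scaled to the size of its library) is about 38.9. They summed to between 37737058 and 40017763 per library. EXT1, the targeted gene, averaged 919.8 ± 41.6 normalised counts in EXT1-/- cells and 1562 ± 144 in WT cells (SD, n = 4 each), so its transcript was lower but present in the library group labelled as edited. Of the 4 mesendoderm markers, 3 fell in EXT1-/- cells, against 16.8% of all genes lower at an adjusted p below 0.05 (limma). These were TBXT, MIXL1 and EOMES, while GSC, at 26 to 60 normalised counts, was not called. GSC had a log2 fold change of -0.55 (adjusted p 0.0817, limma, and 0.0372 in the low set). The summed count of the 4 was 9472 to 15005 in EXT1-/- libraries and 27021 to 30702 in WT libraries. The 5 pluripotency markers summed to 115592 to 128283 in EXT1-/- libraries and 150125 to 153099 in WT libraries, so both groups held the markers of the labelled cells. Of these 5, POU5F1, NANOG and DPPA4 fell, SOX2 rose by 0.94 on the log2 scale (adjusted p 0.00815, limma) and LIN28A was not called (0.084). Over all genes 15.2% were higher and 16.8% lower. The summed counts of both lists move with the genotype, and their part in the results was not tested. By their mitochondrial RNA the libraries split into 2 sets with no counterpart in the labels. Transcripts of the mitochondrial genome made up 9.18 to 10.67% of the counts in EXT1-/- replicates 1 and 4 and in WT replicate 1 (the high set), and 5.30 to 5.43% in the other 5 libraries (the low set). Results are given within the low set (2 EXT1-/- and 3 WT libraries) where the sets matter. In bulk RNA, fewer cells of a type and less RNA per cell cannot be told apart.

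The transcripts of the chain-specific enzymes moved in opposite directions in EXT1-/- cells. The synthase gene CHSY1 and both epimerase genes fell, DSEL most of all, to 0.383 of its WT level. Both 4-O-sulfotransferase genes rose, CHST12 by 1.81-fold and CHST11 by 1.52-fold, and the polymerising factor gene CHPF2 rose by 1.18-fold. CHPF and CSGALNACT2 were not called. In all, 3 of the 8 genes were higher and 3 lower at an adjusted p below 0.05 (limma with Benjamini-Hochberg adjustment over all 15811 genes), against 32.0% of all genes called in either direction, 15.2% higher and 16.8% lower. For 6 of the 8 genes no EXT1-/- value fell within the WT range, against 33.5% of all genes without overlap. With the library set as a term 4 of the 8 were higher and 3 lower, against 51.8% of all genes called, 26.2% higher and 25.6% lower. In the low set the counts were also 4 and 3, against 45.4% of all genes called, 21.1% higher and 24.3% lower. The median log2 fold change of the 8 genes was 0.20 and the mean -0.03, beside 0.01 and -0.02 over all genes. DSEL alone among the 8 changed at least 2-fold. Each of the 8 genes had at least 240 normalised counts in every library, so none entered the table through one group only. The authors' deposited table places 5 of them below an FDR of 0.05 (26.2% of all genes), and its FDR for CHPF2 is 0.153.

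**Figure D1:**
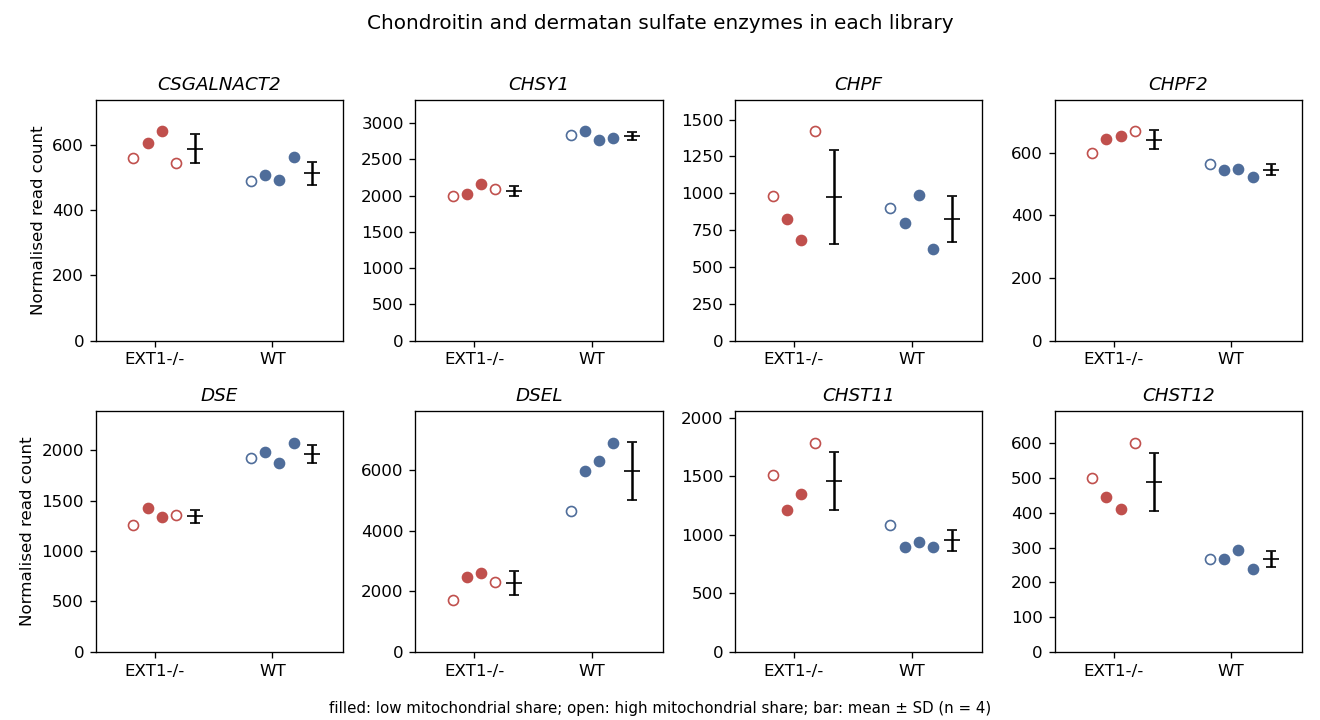
Normalised read counts (y axes, from 0) of the 8 enzyme genes in each EXT1-/- library (left in each panel) and each WT library (right). Filled points are low-set and open points high-set libraries, and bars are the mean ± SD of 4. CHSY1, DSE and DSEL lie lower, and CHST11, CHST12 and CHPF2 higher, in every EXT1-/- library than in any WT library, while the groups overlap for CHPF and CSGALNACT2.

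The step that commits the stem to chondroitin was read through CSGALNACT2 (ENSG00000169826, chromosome 10, 43138486 to 43185308 on the plus strand of GRCh38), an N-acetylgalactosaminyltransferase that starts the chain. It had 559, 605, 641 and 545 normalised counts in EXT1-/- replicates 1 to 4, against 488, 507, 491 and 562 in WT replicates 1 to 4. The groups overlap: the highest WT library, replicate 4, lies above EXT1-/- replicates 1 and 4. The log2 fold change was 0.20 ± 0.08 (SE) with an adjusted p of 0.0835 (limma), and the exact permutation p, two-sided and over all 70 divisions of the 8 libraries, was 0.0857. With the library set as a term the gene was called higher (log2 fold change 0.23, adjusted p 0.00943), and within the low set as well (0.26, adjusted p 0.0263), so its call depends on how the sets are treated.

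CHSY1 (ENSG00000131873, chromosome 15, 101175723 to 101251932, minus strand), the synthase that alternately adds glucuronic acid and N-acetylgalactosamine, had 1994, 2027, 2159 and 2084 normalised counts in EXT1-/- replicates 1 to 4. In WT replicates 1 to 4 it had 2837, 2886, 2767 and 2801. Every EXT1-/- library lay below every WT library, and both groups were tight, with coefficients of variation of 3.50% and 1.80%. The log2 fold change was -0.45 ± 0.05 (SE; adjusted p 0.000157, limma), and the exact permutation p of 0.0286 is the smallest that 4 against 4 libraries allow. The fold was close to this in each set, at -0.43 in the low and -0.48 in the high set.

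The polymerising factors, which CHSY1 needs as partners, did not follow it. CHPF2 (ENSG00000033100, chromosome 7, 151232489 to 151238827, plus strand) had 599, 645, 653 and 668 normalised counts in EXT1-/- replicates 1 to 4, against 563, 546, 549 and 521 in WT replicates 1 to 4. All EXT1-/- values were above all WT values, by a small margin. Its log2 fold change was 0.23 ± 0.06 (SE; adjusted p 0.0173, limma; exact permutation p = 0.0286). The call is near the threshold: adjusted p values were 0.0508 without WT replicate 2 and 0.0523 without WT replicate 4, within a range of 0.00609 to 0.0523 over 23 alternatives. CHPF (ENSG00000123989, chromosome 2, 219538947 to 219543787, minus strand) was the most variable of the 8 genes, with 980, 824, 684 and 1420 normalised counts in EXT1-/- replicates 1 to 4 and 902, 796, 987 and 621 in WT replicates 1 to 4. Its coefficient of variation was 32.7% in EXT1-/- and 19.1% in WT libraries, and the groups overlap in part: EXT1-/- replicate 4 lies above every WT library and WT replicate 4 below every EXT1-/- library. The log2 fold change of 0.21 ± 0.23 (SE) was not called (adjusted p 0.519, limma), and was -0.068 in the low set and 0.39 in the high set. EXT1-/- replicates 1 and 4, both of the high set, carried the highest 2 CHPF values of that group, and the part of the set in this spread was not tested. CHPF and CHPF2 each overlap a gene on the other strand, TMEM198 and SMARCD3, and the strand setting of the counting is not given in the sources used here.

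DSEL (ENSG00000171451, chromosome 18, 67506582 to 67516980, minus strand), the epimerase-like gene whose product also makes iduronic acid, showed the largest change of the 8. It had 1730, 2492, 2613 and 2318 normalised counts in EXT1-/- replicates 1 to 4, against 4644, 5984, 6324 and 6910 in WT replicates 1 to 4. The groups were far apart: the highest EXT1-/- library was well below the lowest WT library. The means were 2288 ± 391 in EXT1-/- cells and 5966 ± 960 in WT cells (SD, n = 4 each), a log2 fold change of -1.38 ± 0.16 (SE; adjusted p 0.000210, limma; exact permutation p = 0.0286). Of all 15811 genes, 4.26% had a larger absolute fold change. In both groups the lowest value came from a library of the high set, and the log2 fold change was -1.33 in the low set and -1.21 in the high set.

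DSE (ENSG00000111817, chromosome 6, 116254173 to 116444860, plus strand), the first known dermatan sulfate epimerase, fell less. Its normalised counts were 1260, 1423, 1339 and 1354 in EXT1-/- replicates 1 to 4 and 1917, 1976, 1876 and 2072 in WT replicates 1 to 4. The groups did not overlap, and each was tight. The log2 fold change was -0.54 ± 0.06 (SE; adjusted p 0.000165, limma; exact permutation p = 0.0286), -0.52 in the low set and -0.55 in the high set. Per kilobase of transcript, the ratio of DSEL to DSE within a library was 1.53, 1.95, 2.17 and 1.91 in EXT1-/- replicates 1 to 4, against 2.70, 3.37, 3.76 and 3.71 in WT replicates 1 to 4. By these lengths DSEL was the more abundant epimerase transcript in every library, by a smaller margin in the EXT1-/- ones. RefSeq lists 4 starts for DSE, and which of its transcripts were present was not tested. Genes that mark fibroblasts, cells rich in dermatan sulfate, were read beside these. All 4 of the 7 listed markers that were measured (COL1A1, COL1A2, THY1 and PDGFRB) were lower, against 16.8% of all genes. The summed count of the 4 was 5026 to 5669 in EXT1-/- libraries and 8418 to 9156 in WT libraries. COL3A1, LUM and DCN were not analysed here. THY1 is also found on human embryonic stem cells. The part of the fibroblast markers in the fall of DSE and DSEL was not tested. DSE overlaps the protein-coding gene Z84488.2 on its own strand and TSPYL1 on the other strand. DSEL overlaps the non-coding genes AC110597.3 and AC114689.3 on the other strand.

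The 4-O-sulfotransferase genes went the other way. CHST11 (ENSG00000171310, chromosome 12, 104455295 to 104762014, plus strand), whose product sulfates chondroitin on carbon 4, had 1509, 1212, 1344 and 1785 normalised counts in EXT1-/- replicates 1 to 4 and 1085, 895, 938 and 898 in WT replicates 1 to 4. Every EXT1-/- library was above every WT library, and in both groups the high-set libraries were the highest. The log2 fold change was 0.61 ± 0.12 (SE; adjusted p 0.00527, limma; exact permutation p = 0.0286), 0.49 in the low set and 0.60 in the high set. CHST12 (ENSG00000136213, chromosome 7, 2403560 to 2448483, plus strand), the second gene for this reaction, had 500, 445, 410 and 602 normalised counts in EXT1-/- replicates 1 to 4, against 267, 268, 294 and 240 in WT replicates 1 to 4. Again no values were shared between the groups, and the high-set libraries led within EXT1-/- but not within WT. Its log2 fold change was 0.86 ± 0.12 (SE; adjusted p 0.000907, limma; exact permutation p = 0.0286), 0.68 in the low set and 1.04 in the high set.

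**Figure D2:**
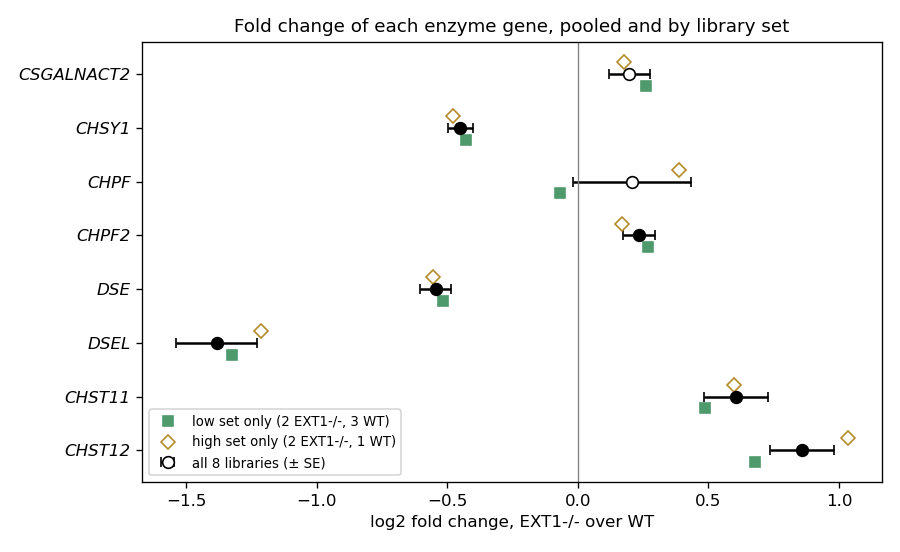
log2 fold change of EXT1-/- over WT (x axis) for the 8 enzyme genes (y axis). Circles are all 8 libraries with their SE, filled where the adjusted p is below 0.05; squares are the low set alone and diamonds the high set alone. Within-set values have the same sign for 7 of the 8 genes, and CHPF, at -0.068 and 0.39, is the exception.

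The sequence before the start of 3 of the called genes is shown because these genes changed in opposite directions, CHST11 and CHST12 upwards and CHSY1 downwards. The starts and sequences are those of RefSeq on GRCh38.p14, which lists 1 start for each, and the bases run 5′ to 3′ on the strand of the gene, stopping at the RefSeq start or, where that comes earlier, at the first base that GENCODE 29 counts as exon. The CHST11 stretch lies inside the gene as GENCODE 29 draws it, after its annotated first base. Capitals mark matches, on either strand, to any of 6 motifs: the GC box GGGCGG, the ETS core CCGGAAG, the TCF/LEF motif CTTTGAT, the CCAAT box CCAAT, the E-box CACGTG and the AP-1 motif TGANTCA.
CHST11, chr12:104456698-104456915, plus strand: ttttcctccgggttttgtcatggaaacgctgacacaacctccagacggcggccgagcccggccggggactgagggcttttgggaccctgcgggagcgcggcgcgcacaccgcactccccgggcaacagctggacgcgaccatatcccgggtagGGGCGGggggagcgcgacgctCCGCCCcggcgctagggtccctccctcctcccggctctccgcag
CHST12, chr7:2403361-2403559, plus strand: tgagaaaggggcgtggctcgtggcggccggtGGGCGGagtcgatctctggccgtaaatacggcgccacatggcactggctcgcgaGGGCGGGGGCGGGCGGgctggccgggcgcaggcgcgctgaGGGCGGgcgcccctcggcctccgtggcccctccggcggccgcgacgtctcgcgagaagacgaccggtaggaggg
CHSY1, chr15:101252049-101252298, minus strand: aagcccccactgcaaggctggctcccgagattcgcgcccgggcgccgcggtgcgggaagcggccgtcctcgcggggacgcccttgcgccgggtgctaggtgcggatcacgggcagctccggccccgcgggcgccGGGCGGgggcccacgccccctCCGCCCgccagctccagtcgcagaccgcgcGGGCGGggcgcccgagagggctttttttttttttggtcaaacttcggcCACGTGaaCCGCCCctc
Over the 250 bases before the RefSeq start, overlapping matches counted separately, CHST11 held 2 GC boxes, CHST12 held 6 (5 of them in the stretch shown) and CHSY1 held 4, besides 1 E-box in CHSY1. Bases G and C made up 73.2% of the window of CHST11, 78.0% of that of CHST12 and 74.8% of that of CHSY1, beside a median of 65.2% over all promoters searched. Among 10866 promoters of genes in the table, 67.1% held a GC box, 8.80% the E-box, 15.4% the ETS core, 34.9% the CCAAT box, 3.62% the AP-1 motif and 1.30% the TCF/LEF motif. At least as many GC boxes were found in 42.3% of promoters for CHST11, 4.14% for CHST12 and 14.3% for CHSY1. Among the genes shown, GC boxes thus stood before CHST11 and CHST12, which rose, and before CHSY1, which fell. CHPF2, also called higher, held 2 GC boxes in its window and is not shown. DSEL, with 7 GC boxes in its window, is not shown because GENCODE 29 counts all 250 bases as exon, nor is DSE, for which RefSeq lists 4 starts.

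Set against transcript length, the order of the 8 genes differed between the groups. Levels are normalised counts per kilobase of the longest protein-coding transcript that GENCODE 29 matches to a RefSeq mRNA. In EXT1-/- cells CHSY1 was highest at 454.1 ± 15.9, followed by CHPF at 324.3 ± 106, CHST11 at 256.2 ± 43.3, DSEL at 240.1 ± 41.1, CHST12 at 229.6 ± 39.3, CHPF2 at 161.2 ± 7.48, CSGALNACT2 at 157.5 ± 11.8 and DSE at 126.6 ± 6.30 (SD, n = 4). In WT cells DSEL at 625.9 ± 101 and CHSY1 at 620.4 ± 11.2 led, followed by CHPF at 274.3 ± 52.3, DSE at 184.6 ± 8.01, CHST11 at 167.1 ± 15.7, CSGALNACT2 at 137.3 ± 9.21, CHPF2 at 136.9 ± 4.39 and CHST12 at 125.4 ± 10.3. Among neighbours in the EXT1-/- order, CHST12 lay clear of CHPF2 and CSGALNACT2 clear of DSE, and the ranges of the other neighbours overlapped. In the WT order the ranges overlapped between DSEL and CHSY1, DSE and CHST11, CSGALNACT2 and CHPF2, and CHPF2 and CHST12. By these lengths DSE had the lowest mean in EXT1-/- cells and CHST12 the lowest in WT cells. Per kilobase of all annotated exons, DSE ranked 7 in both groups. By that length the order differed only in the place of DSEL, ranked 1 in WT and 3 in EXT1-/- cells. The level of CHST12 depends on the length used, since GENCODE 29 also holds a long transcript: per kilobase of all annotated exons it was 30.3 ± 5.19 in EXT1-/- and 16.6 ± 1.37 in WT cells, the lowest in both.

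**Figure D3:**
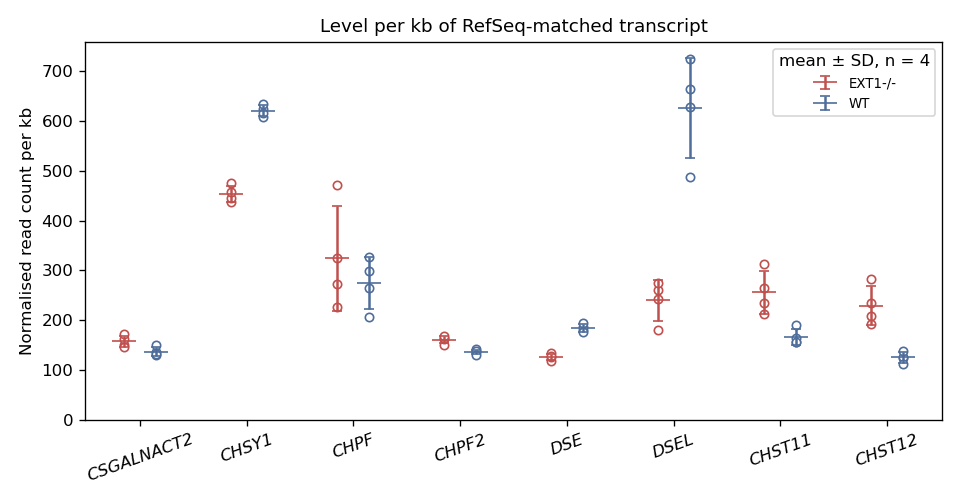
Normalised read counts per kilobase of the RefSeq-matched transcript (y axis, from 0) for the 8 enzyme genes (x axis), EXT1-/- left and WT right of each position. Open points are libraries and bars the mean ± SD of 4. DSEL and CHSY1 share the top in WT cells, at 625.9 and 620.4, and CHSY1 has the highest mean in EXT1-/- cells, at 454.1, where the range of CHPF overlaps it.

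The other sulfotransferases that act on these chains were compared to place CHST11 and CHST12 among them. Of 5 measured, 1 was higher (CHST15) and 2 were lower (CHST7 and UST), against 15.2% of all genes higher and 16.8% lower. CHST7, a 6-O-sulfotransferase of N-acetylgalactosamine, had 211, 197, 201 and 377 normalised counts in EXT1-/- replicates 1 to 4, against 390, 411, 485 and 326 in WT replicates 1 to 4, a log2 fold change of -0.75 ± 0.22 (SE; adjusted p 0.0282, limma). EXT1-/- replicate 4 stood above the other 3 libraries of its group and above the lowest WT library, and without it the log2 fold change was -0.97 (adjusted p 0.00113). Its call was lost without EXT1-/- replicate 1, 2 or 3 and without WT replicate 2 or 3 (adjusted p 0.0666 to 0.0795). CHST3, the other 6-O-sulfotransferase, averaged 381.8 ± 57.0 in EXT1-/- and 416.5 ± 30.9 in WT cells (SD, n = 4 each; adjusted p 0.387, limma; 0.0375 in the low set). UST, which sulfates the uronic acid on carbon 2, had 1546, 1671, 1645 and 1664 normalised counts in EXT1-/- replicates 1 to 4, against 1906, 1919, 1924 and 1933 in WT replicates 1 to 4, and fell by 0.24 on the log2 scale (adjusted p 0.00586, limma). CHST15, which adds a second sulfate to 4-sulfated units, averaged 744.5 ± 60.5 in EXT1-/- and 612.8 ± 56.9 in WT cells (SD, n = 4 each; adjusted p 0.0387, limma), a call lost without any one of EXT1-/- replicates 1, 2 and 4 and WT replicates 2, 3 and 4 (adjusted p 0.0830 to 0.104). CHST14, the 4-O-sulfotransferase of dermatan, averaged 552.2 ± 62.4 in EXT1-/- and 554.2 ± 61.6 in WT cells (SD, n = 4 each), a log2 fold change of -0.0052 ± 0.11 (SE; adjusted p 0.975, limma). The authors' deposited FDR was 0.0638 for UST and 0.0924 for CHST15, both above 0.05, and 0.00969 for CHST7. CHST13 was not analysed here.

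Within a library, the level of CHST11 and CHST12 together, relative to the 6-O-sulfotransferase genes CHST3 and CHST7, was higher in EXT1-/- cells. The summed level per kilobase of CHST11 and CHST12, divided by that of CHST3 and CHST7, was 3.42, 3.08, 3.15 and 2.57 in EXT1-/- replicates 1 to 4. In WT replicates 1 to 4 it was 1.33, 1.18, 1.12 and 1.36. The groups did not overlap, and the ratio of the means was 2.45, 2.55 in the low set and 2.25 in the high set; it was 2.10 when levels were not divided by length, and 2.12 when CHST14, whose own level was not called, was added to CHST11 and CHST12. Per kilobase of all annotated exons the ratio averaged 1.61 in EXT1-/- and 0.70 in WT libraries. Which pair of genes was the higher in WT cells thus depends on the length used. This ratio does not depend on the scaling of the libraries. It was given no test, and its genes were chosen with earlier results known. The corresponding ratio of the polymerising factors CHPF and CHPF2 to CHSY1 was 1.09, 0.978, 0.824 and 1.40 in EXT1-/- replicates 1 to 4, against 0.707, 0.633, 0.766 and 0.548 in WT replicates 1 to 4, also without overlap.

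**Figure D4:**
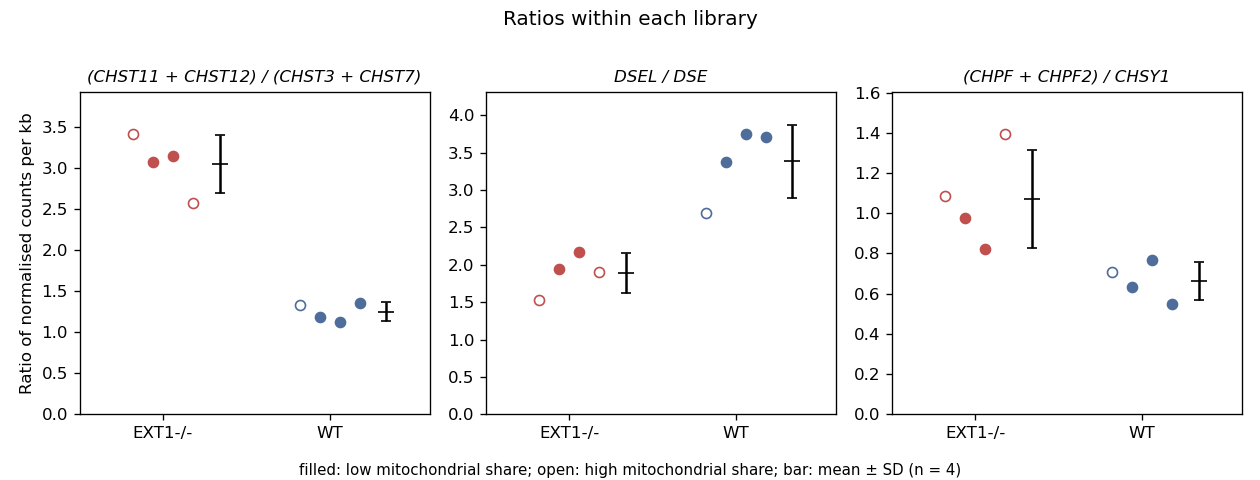
Ratios of normalised counts per kilobase within each library (y axes, from 0), EXT1-/- left and WT right, for 4-O over 6-O sulfotransferases, DSEL over DSE, and CHPF plus CHPF2 over CHSY1. Filled points are low-set and open points high-set libraries, and bars are the mean ± SD of 4. No panel shows overlap between the groups: the DSEL over DSE ratio is lower, and the other two are higher, in EXT1-/- libraries.

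Of 7 linkage region genes, which act before the chain-specific enzymes, 1 was higher and none was lower, against 15.2% of all genes higher and 16.8% lower, so the share higher was near the background. XYLT1, a xylosyltransferase that places the first sugar of the stem, had 995, 1032, 1004 and 1058 normalised counts in EXT1-/- replicates 1 to 4, against 714, 718, 656 and 702 in WT replicates 1 to 4, without overlap (log2 fold change 0.55 ± 0.06 SE, adjusted p 0.000112, limma). Its homologue XYLT2 averaged 1167 ± 222 in EXT1-/- and 910.5 ± 121 in WT cells (SD, n = 4 each; adjusted p 0.105, limma). The galactosyltransferase genes B4GALT7 and B3GALT6, the glucuronyltransferase gene B3GAT3, the xylose kinase gene FAM20B and the xylose phosphatase gene PXYLP1 had log2 fold changes between -0.016 and 0.18, none of them called. With the library set as a term, 3 of the 7 were higher, against 26.2% of all genes, with XYLT2 (adjusted p 0.0192) and B3GAT3 (0.0435) besides XYLT1. On the competing heparan sulfate branch, 2 of 5 genes were higher (EXTL3 and EXTL1), against 15.2% of all genes, EXT1 was lower by the values given above, and EXT2 (log2 fold change -0.10) and EXTL2 (-0.17) were not called. EXTL3, which opens a heparan sulfate chain, was higher by 0.22 on the log2 scale (adjusted p 0.0140, limma), and EXTL1 by 0.48 (adjusted p 0.0380). The authors' deposited FDR was 0.0655 for EXTL3 and 0.146 for EXTL1, both above 0.05. EXTL1, a related transferase, was low, with a mean of 76.5 normalised counts in EXT1-/- and 54.2 in WT cells, and its call was lost in the low set (adjusted p 0.239) and without EXT1-/- replicate 1 or 4 or any 1 WT library (0.0530 to 0.0957).

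Genes that supply the activated sugars and sulfate were compared next, with 4 of the 13 reported lower and 1 higher. That is 38.5% called, near the 32.0% of all genes. UGP2, which makes UDP-glucose, fell to 11272 ± 1232 normalised counts in EXT1-/- cells, against 19033 ± 600.0 in WT cells (SD, n = 4 each; a change of -0.76 on the log2 scale with an adjusted p of 0.000154, limma). The sulfate donor synthases PAPSS1 and PAPSS2 fell by 0.27 and 0.40 and IMPAD1, a phosphatase that clears a by-product of sulfation, by 0.32 on the log2 scale (adjusted p 0.0135, 0.0140 and 0.00777, limma). The groups did not overlap for these 4 genes, which were named for their small adjusted p. Over all genes, 33.5% were without overlap. UXS1, which makes the UDP-xylose used for the stem, averaged 1998 ± 169 normalised counts in EXT1-/- and 1688 ± 84.1 in WT cells (SD, n = 4 each; adjusted p 0.0329, limma), a call lost in the low set (adjusted p 0.0534) and without any one of EXT1-/- replicates 1 and 4 and WT replicates 2, 3 and 4 (0.0525 to 0.101). The authors' deposited FDR for UXS1 was 0.0797. Among 8 degradation genes reported, 2 were lower and 1 higher, or 37.5% called, again near the 32.0% of all genes. HEXA, a subunit of β-hexosaminidase, fell by 0.29, IDS, the iduronate sulfatase, fell by 0.37, and GALNS, which removes 6-O-sulfate from N-acetylgalactosamine, rose by 0.58 on the log2 scale (adjusted p 0.00861, 0.00700 and 0.0174, limma). The call of GALNS was lost without EXT1-/- replicate 1 (adjusted p 0.0505) or WT replicate 2 (0.0540).

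The core proteins that can carry these chains went both ways. Of 17 measured of 24 listed, 8 were higher, 5 lower and 4 not called, against 15.2% of all genes higher and 16.8% lower, with log2 fold changes from -1.63 to 2.69 and a median of 0.03. PTPRZ1, a receptor phosphatase of the nervous system that carries chondroitin sulfate, fell to 10809 ± 421 normalised counts in EXT1-/- cells, against 22216 ± 365 in WT cells (SD, n = 4 each; adjusted p 1.49e-06, limma). CD44, a hyaluronan receptor that can carry a chain, fell to 737.8 ± 86.7, against 1532 ± 153 in WT cells (adjusted p 8.75e-05, limma). VCAN, which encodes versican, rose to 67723 ± 2090 in EXT1-/- cells, against 45265 ± 2469 in WT cells (SD, n = 4 each; a change of 0.58 on the log2 scale with an adjusted p of 7.65e-05, limma). NCAN, the neural proteoglycan neurocan, rose to 347.0 ± 23.1, against 123.5 ± 15.1, and NRP1, the semaphorin co-receptor neuropilin, to 326.2 ± 93.8, against 48.8 ± 6.34 in WT cells (SD, n = 4 each; adjusted p 1.27e-05 and 1.51e-05, limma). Some of the list were near the low end of the table in one group, such as NRP1 in WT cells, so its counts over genes that reached the table are a description only. Cartilage cells are the classical makers of chondroitin sulfate, and of 9 cartilage markers 5 were measured. Of these, 1 was higher (HAPLN1) and 1 lower (SOX9), against 15.2% of all genes higher and 16.8% lower. The summed count of the 5 was 1098 to 1237 in EXT1-/- libraries and 1128 to 1429 in WT libraries. HAPLN1, at 32 to 77 normalised counts, was not called in the low set. The authors' deposited FDR was 0.053 for HAPLN1 and 0.0679 for SOX9, both above 0.05. ACAN, COL11A2, MATN1 and COMP were not analysed here.

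**Figure D5:**
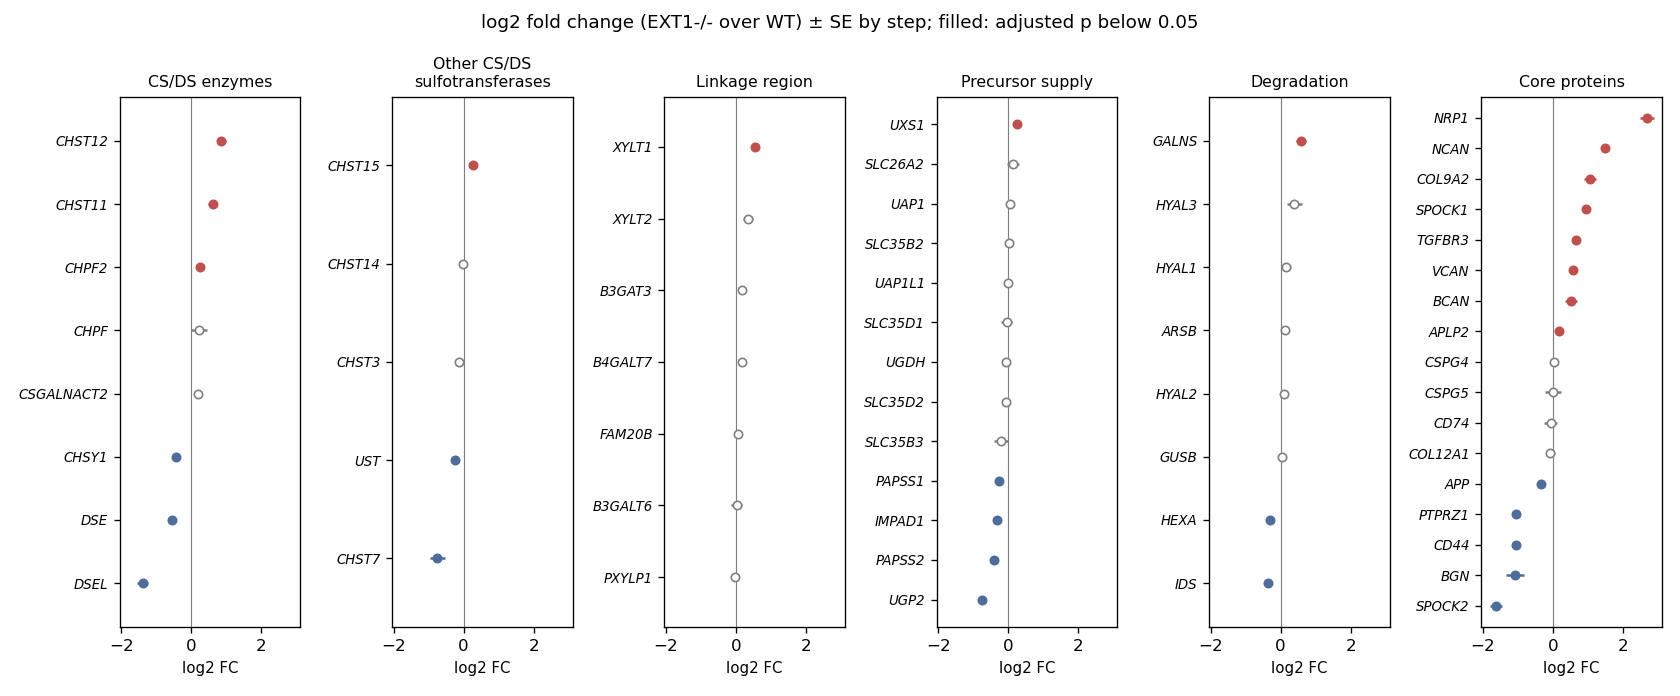
log2 fold change of EXT1-/- over WT (x axes, with SE bars) for each gene reported (y axes) of the chain-specific enzymes, the other sulfotransferases, the linkage region, precursor supply, degradation and core proteins. Filled points are called at an adjusted p below 0.05. CHST12, at 0.86, and DSEL, at -1.38, bound the first panel, and the core proteins span -1.63 to 2.69.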

How the data were processed

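Total RNA of 4 EXT1-/- and 4 WT libraries was sequenced from a stranded kit, per the labels' protocols. STAR, RSEM and edgeR were used with GRCh38.p10, per the submitters' processing notes; versions are not given in the sources used here. The authors deposited one table of whole-number normalised read counts, a signal and not raw counts: effective library sizes (own trimmed mean of M values) were 38891466 to 38902443. It also holds a log2 fold change, log2 CPM, likelihood ratio score, p-value and FDR per gene that the authors deposited. Depth before normalisation is unknown, so counting intervals were not made.

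Values were tested as log2(value + 1) with limma 3.58.1 in R 4.3.3 (intensity trend, genotype as the only term, Benjamini-Hochberg over 15811 genes, threshold 0.05). The low-value filter, a group mean of 1 or more, removed 0 genes. Fold changes on this scale understate low genes. Exact permutation tests used 70 divisions, two-sided. Library sets come from the largest gap in mitochondrial share. Within a group, chi-square per degree of freedom was 4.42 to 10.72 within a set and 72.2 to 119.3 between sets, so no library looked like a repeat deposit of another. The limma script was first tested on simulated data. Coordinates and lengths are from GENCODE 29 (99.8% of genes matched), and promoters from RefSeq. Named genes were all enzymes in the table, EXT1, all other sulfotransferase and linkage genes, and up to 5 called genes with the smallest adjusted p in the remaining lists. Some genes of these lists are not reported here and enter no list count. Members, lists, tests and alternatives were chosen with earlier results of these data known. TBXT was matched through its older symbol. Alternatives were other scalings, filters, pseudocounts, variance models, a replicate block, the library set, and each library left out. Tables and figures were made with pandas 2.3.3, scipy 1.17.1 and matplotlib 3.10.9 in Python 3.11.15.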

Additional observations from a re-analysis of the deposited data

Results flagged for a closer look

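Within a group of 4 libraries, 5 of 72 groups tested over the 36 named genes had 1 library far from the other 3, by the gap to its nearest neighbour over the range of the group (above Dixon's 95% critical value); chance flags about 1 in 20, here 3.6 groups. None of the 8 enzyme genes was among them. For CHST7 it was EXT1-/- replicate 4, with 377 normalised counts beside 197 to 211 in the rest of that group (0.922). The other 4 were all WT replicate 1, the WT library of the high set: EXT1 with 1776 against 1464 to 1508 (0.859), PXYLP1 with 1248 against 1410 to 1429 (0.895), NCAN with 146 against 114 to 117 (0.906) and HEXA with 2780 against 3073 to 3119 (0.864).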

How the results depend on the processing

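Of the 6 enzyme genes called, CHSY1, DSE, DSEL, CHST11 and CHST12 kept direction and call under all 23 alternatives run. CHPF2 kept its direction at 0.23 but lost its call with a replicate block (adjusted p 0.0507) and in some runs without 1 library (log2 fold change 0.21 to 0.27, adjusted p 0.0169 to 0.0523). CSGALNACT2 was called with the library set as a term (0.23) and in the low set (0.26). CHPF turned to -0.068 in the low set and was 0.011 to 0.36 without 1 library. The number of enzyme genes called was 5 to 6 without 1 library and 7 in the low set and with the set term; over all genes it was 3721 to 6041 without 1 library and 8195 with the set term, against 5063. The 4-O over 6-O ratio, a log2 difference of 1.29 between the groups, was 1.07 without division by length, 1.20 per kilobase of all annotated exons and 1.08 with CHST14 added to the 4-O sum (both chosen after the data were seen), and 1.23 to 1.36 without 1 library. Uncalled genes that changed sign were CHST14 (0.0071 without mitochondrial genes, -0.080 to 0.052 without 1 library), B3GALT6 (-0.057 with the set term, -0.15 in the low set, -0.14 to 0.11 without 1 library) and PXYLP1 (0.016 with the set term, -0.062 to 0.0027 without 1 library). CHST15 and UXS1 also lost their calls with upper-quartile scaling (adjusted p 0.0619 and 0.0521). Replicate numbers are shared by the groups. Same-numbered libraries correlated between -0.64 and 0.75 in their deviations, and only 1 EXT1-/- library correlated best with its own number. All correlations between the groups were positive within a library set and negative across sets, so they cannot show whether the numbers pair libraries. The libraries were not treated as pairs. With a replicate block, EXTL1 and CHST7 also lost their calls (adjusted p 0.0870 and 0.0618, limma). The cause of these changes was not tested. The high set holds 1 WT library, and the depth before normalisation is unknown, which limits what can be said of small differences.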
